A study of Mus musculus with 10 samples.

Results

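Neutrophil granule and calprotectin genes were followed here in popliteal lymph nodes, the nodes that drain the hind paw. The set holds 10 of the 54987 genes in the deposited table, taken by gene name: S100a8, S100a9, Lcn2, Ngp, Camp, Ltf, Mmp8, Mmp9, Cxcr2 and Csf3r. All 10 were present once in the table and all 10 passed the filter on low values. RNA was sequenced from 10 libraries of male BALB/c mice, 6 to 8 weeks old, and the labels give day 15 for every library. Acu (3 libraries, numbered 4, 6 and 28) received complete Freund's adjuvant under the skin of the right hind paw, 0.1 ml, together with acupuncture at ST36, the point named in the series title. AIA (4 libraries, 5, 10, 31 and 38) received the same adjuvant without acupuncture. Control (3 libraries, 15, 16 and 17) received the same volume of saline. Complete Freund's adjuvant is an oil emulsion with killed mycobacteria that is used to induce arthritis in rodents. A sham acupuncture group named in the protocols was not analysed here. Nothing in the labels ties a library to a single mouse, so the p-values below rest on a spread between libraries that may be technical.

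Neutrophils carry their killing proteins in granules that are filled one kind after another while the cell matures in the bone marrow. Primary granule genes are transcribed first, secondary (specific) granule genes such as Ltf, Camp, Ngp and Lcn2 next, and gelatinase granule genes such as Mmp9 last. Transcription of the secondary granule genes is largely over when a neutrophil enters the blood, whereas S100a8, S100a9 and the surface receptors remain transcribed in mature cells, and inflammatory monocytes make S100a8 and S100a9 too. The promoters of these genes are known targets of C/EBP factors and PU.1.

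The reads recovered from the deposited values ran from 13269763 to 18926894 per library. The libraries labelled Control 17 and Acu 4 stood apart: all 11 genes of a decidual and uterine list passed 1 FPKM (fragments per kilobase of gene and per unit of library size) in both, and Prl8a2, a prolactin of the decidua, was listed at 3901 FPKM in the library labelled Acu 4 and 10739 FPKM in the library labelled Control 17. The B cell gene Cd79a, which marks a lymph node's follicles, was at most 0.626 FPKM in these libraries and reached 2.09 FPKM in Control 15, which had high levels of fat genes. In the other 7 libraries Cd79a lay between 218 and 475 FPKM. AIA 10 had 15116 genes above 0, fewer than any other library. Calls on the members are therefore given for all 10 libraries and for the 8 libraries other than those labelled Control 17 and Acu 4, and, for AIA over Control, for the 7 libraries that also leave out Control 15. With these 7, Control is Control 16 alone, and the AIA and Acu libraries supply the whole spread of the test, on the assumption that Control varies as they do. Other genes are given with 8 libraries. This was chosen after limma had called 0 genes of any of the lists below with all 10, in any comparison. In bulk RNA, fewer neutrophils and less RNA per neutrophil cannot be told apart.

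The promoters of 4 members are shown because the results below turn on 2 pairs of genes, S100a8 with S100a9 and Ngp with Ltf. S100a8 lies on chromosome 3 (mm10, chr3:90668978-90670035, plus strand) and S100a9 22596 bases further on the minus strand (chr3:90692632-90695721). Ngp (chr9:110419747-110423012, plus strand) and Ltf (chr9:111019271-111042767, plus strand) lie 596258 bases apart on chromosome 9, and Camp (chr9:109847379-109849617, minus strand) lies 570129 bases from Ngp. Each sequence gives the 250 bases before the RefSeq start of the gene (build GRCm38.p6, the assembly mm10 is based on), 5′ to 3′ on the strand of the gene. Capitals mark matches, on either strand, to TTGCNNAA for C/EBP factors, GAGGAA for PU.1 and the NF-kB motif.
S100a8 (chr3:90668821-90669070, plus): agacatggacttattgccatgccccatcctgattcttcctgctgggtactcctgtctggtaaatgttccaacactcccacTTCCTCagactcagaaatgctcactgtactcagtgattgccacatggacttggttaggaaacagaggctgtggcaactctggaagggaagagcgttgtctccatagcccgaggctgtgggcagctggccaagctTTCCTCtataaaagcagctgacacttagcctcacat
S100a9 (chr3:90695722-90695971, minus): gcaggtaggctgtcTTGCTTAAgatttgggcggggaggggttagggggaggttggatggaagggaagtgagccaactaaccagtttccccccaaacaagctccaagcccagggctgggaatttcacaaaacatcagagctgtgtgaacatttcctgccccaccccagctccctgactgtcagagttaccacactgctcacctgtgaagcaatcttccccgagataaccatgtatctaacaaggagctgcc
Ngp (chr9:110419558-110419807, plus): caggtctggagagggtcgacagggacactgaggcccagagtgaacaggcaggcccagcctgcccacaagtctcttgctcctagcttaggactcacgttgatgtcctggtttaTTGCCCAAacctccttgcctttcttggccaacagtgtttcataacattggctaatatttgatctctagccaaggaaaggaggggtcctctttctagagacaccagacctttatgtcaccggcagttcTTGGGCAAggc
Ltf (chr9:111019042-111019291, plus): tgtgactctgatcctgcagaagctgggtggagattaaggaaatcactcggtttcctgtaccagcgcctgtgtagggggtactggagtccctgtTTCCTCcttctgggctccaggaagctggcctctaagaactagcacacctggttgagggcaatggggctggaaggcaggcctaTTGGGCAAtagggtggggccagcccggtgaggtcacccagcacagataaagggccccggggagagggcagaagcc
The last 93 bases of the S100a8 window, 61 of the Ngp window and 21 of the Ltf window lie inside the gene as deposited, since the RefSeq start used here is downstream of the deposited one. Of the windows not shown, that of Lcn2 lies wholly inside its deposited gene. So do the last 161 bases for Camp, 109 for Csf3r and 5 for Cxcr2, and matches in these parts are counted below. RefSeq promoters were found for 9 of the 10 members, and Mmp9 had none in the table. The C/EBP letters occurred in the windows of 5 of the 9 (S100a9, Lcn2, Ngp, Ltf and Mmp8), against 9.56% of the 32851 RefSeq promoters searched. The PU.1 letters occurred in 6 of the 9 (S100a8, Lcn2, Ltf, Mmp8, Cxcr2 and Csf3r), against 23.3% of all promoters. The NF-kB motif occurred in 1 of the 9, Csf3r, against 1.21%. None of the 14 matches overlapped another, and Camp had none of the 3 motifs in its window. The S100a8 window holds PU.1 letters 170 to 165 and 36 to 31 bases before the start, and the S100a9 window holds C/EBP letters 236 to 229 bases before it. Such a match is a run of letters and was not tested as a binding site.

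The calprotectin genes had the highest mean levels of the set in AIA, and on the log2(FPKM + 1) scale the largest fitted differences between AIA and the saline nodes. As a ratio of mean FPKM the order was another, since with all 10 libraries S100a8 averaged 119 ± 99.1 FPKM in AIA (SD, n = 4) and 152 ± 261 FPKM in Control (SD, n = 3). The proteins of S100a8 and S100a9 pair to form calprotectin, which binds calcium and zinc, starves bacteria of metal and signals through Tlr4. S100a9 was 5.05 FPKM in the library labelled Acu 4, 20.2 in Acu 6 and 75.0 in Acu 28. It was 270.2 FPKM in AIA 5, 194 in AIA 10, 44.1 in AIA 31 and 350.0 in AIA 38. It was 2.45 FPKM in Control 15, 0.496 in Control 16, where it rested on 4 reads, and 4.87 in the library labelled Control 17. Every AIA library stood above every Control library. So did every Acu library, but the library labelled Acu 4 had only 42 reads against 39 in the library labelled Control 17. AIA and Acu overlapped because Acu 28 was higher than AIA 31. S100a9 averaged 214.6 ± 130.3 FPKM in AIA (SD, n = 4) and 2.60 ± 2.19 FPKM in Control (SD, n = 3). The log2 fold change of AIA over Control was 5.77 (SE 0.93) with all 10 libraries, at a limma adjusted p of 0.0545, just outside the threshold of 0.05. With 8 libraries S100a9 rose by 6.21 (SE 0.87, limma adjusted p = 0.00473), and with 7 libraries, against Control 16 alone with its 4 reads, the difference was 6.80 (SE 1.17, limma adjusted p = 0.0380).

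S100a8 was 51.9 FPKM in the library labelled Acu 4, 9.74 in Acu 6 and 29.6 in Acu 28. It was 125 FPKM in AIA 5, 90.8 in AIA 10, 10.9 in AIA 31 and 249 in AIA 38. It was 0.964 FPKM in Control 15 and 0.373 in Control 16, resting on 11 and 4 reads, and 453 FPKM, or 4832 reads, in the library labelled Control 17. That library alone held more S100a8 than any AIA library, so the groups overlapped. With all 10 libraries the log2 fold change of AIA over Control was 2.84 (SE 1.85, limma adjusted p = 0.352). With 8 libraries S100a8 rose by 5.53 (SE 1.06, limma adjusted p = 0.0144), and with 7 libraries its 5.77 (SE 1.49) was no longer called, at a limma adjusted p of 0.103.

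The ratio of the calprotectin partners set the same 2 libraries apart. The FPKM of S100a9 was 2.08 times that of S100a8 in Acu 6 and 2.53 times in Acu 28. The ratio was 2.17 in AIA 5, 2.14 in AIA 10, 4.03 in AIA 31 and 1.40 in AIA 38, and 2.54 in Control 15 and 1.33 in Control 16. It was 0.0973 in the library labelled Acu 4 and 0.0107 in the library labelled Control 17. In Acu 6, Acu 28, all AIA libraries and Control 15, S100a9 was thus the higher partner per length. In the libraries labelled Acu 4 and Control 17 S100a8 was. Control 16 had 4 reads of each gene, so its ratio is only that of the gene lengths and does not order the partners. In Control 15 the ratio rested on 21 reads of S100a9 and 11 of S100a8. Over the 8 libraries the profile of S100a8 was the nearest to that of S100a9 among the members, with a root-mean-square difference of 0.502 between their centred log2(FPKM + 1) values.

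**Figure D1:**
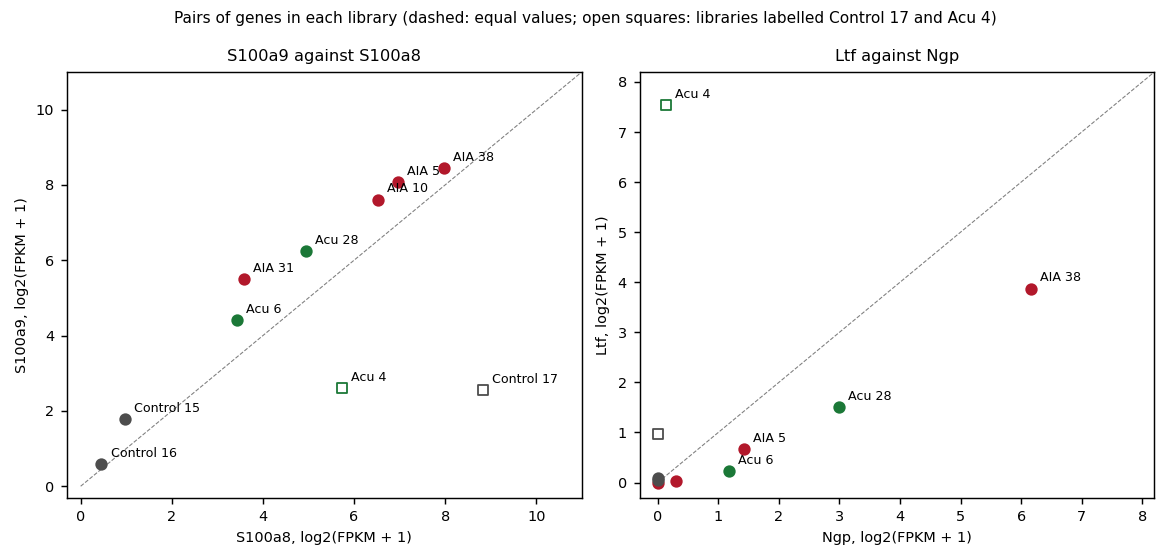
Levels of S100a9 against S100a8 (left) and of Ltf against Ngp (right) in each library, both axes log2(FPKM + 1), with Acu in green, AIA in red and Control in grey. The libraries labelled Control 17 and Acu 4 (open squares) lie off the line that the others follow for the calprotectin pair, and the library labelled Acu 4 has Ltf at 185 FPKM with Ngp at 0.103 FPKM.

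The secondary granule genes Ngp and Camp were high in AIA 38 and low or absent elsewhere, as was Ltf in all libraries but the library labelled Acu 4. Ngp, a cathelicidin-related protein of neutrophil granules, was 0.103 FPKM in the library labelled Acu 4, 1.25 in Acu 6 and 6.97 in Acu 28. It was 1.67 FPKM in AIA 5, 0 in AIA 10, 0.230 in AIA 31 and 70.8 in AIA 38. All 3 Control libraries had 0 reads of Ngp. AIA 38 held 97.4% of the Ngp FPKM summed over the AIA libraries, at 42.3 times the next, AIA 5. Ngp averaged 2.78 ± 3.68 FPKM in Acu (SD, n = 3), 18.2 ± 35.1 FPKM in AIA (SD, n = 4) and 0 FPKM in Control (n = 3). Set against the 3 reads that a count of 0 allows in a library (at most 0.160 FPKM in Control), the AIA mean was at least 114-fold higher, and nearly all of it came from AIA 38. The fitted log2 fold change of AIA over Control was 1.97 (SE 1.32, limma adjusted p = 0.363) with all 10 libraries and 1.96 (SE 1.54, limma adjusted p = 0.434) with 8.

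Camp encodes the mouse cathelicidin, an antimicrobial peptide precursor. It was 0.331 FPKM in the library labelled Acu 4, 0.716 in Acu 6 and 5.85 in Acu 28. It was 1.17 FPKM in AIA 5, 34.5 in AIA 38 and 0 in AIA 10 and 31, against 0.161 FPKM in Control 15, or 2 reads, and 0 in Control 16 and the library labelled Control 17. AIA 38 held 96.7% of the AIA sum, as it did for Ngp, and Acu 28 was again second. Ngp was the member nearest to Camp in profile over 8 libraries, with a root-mean-square difference of 0.345, and Ltf came next at 0.519. The fitted log2 fold change of Camp, AIA over Control, was 1.45 (SE 1.35, limma adjusted p = 0.515) with 8 libraries, and with all 10 the limma adjusted p was 0.422.

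Ltf encodes lactoferrin, an iron-binding protein that is also made by glandular and uterine epithelium. It was 185 FPKM in the library labelled Acu 4, or 10150 reads, 0.172 in Acu 6 and 1.85 in Acu 28. It was 0.593 FPKM in AIA 5, 0 in AIA 10, 0.0163 in AIA 31 and 13.6 in AIA 38. In Control it was 0.0705 FPKM in Control 15, 0.0375 in Control 16 and 0.944 in the library labelled Control 17. Among the AIA libraries 95.7% of the sum again lay in AIA 38. Where Ngp was above 1 FPKM, Ltf stayed below it, at 0.137 times Ngp in Acu 6, 0.265 in Acu 28, 0.354 in AIA 5 and 0.193 in AIA 38. The log2 fold change of AIA over Control was 0.77 (SE 1.57, limma adjusted p = 0.778) with all 10 libraries and 1.06 (SE 1.01, limma adjusted p = 0.527) with 8, and it was -0.14 when AIA 38 alone was left out.

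Lcn2 encodes lipocalin 2, which binds bacterial siderophores and is made by epithelium as well as by neutrophils. Unlike Ngp, Camp and Ltf, it was present in every adjuvant library. It was 337 FPKM in the library labelled Acu 4, or 14077 reads, 3.91 in Acu 6 and 6.55 in Acu 28. It was 7.07 FPKM in AIA 5, 15.8 in AIA 10, 7.17 in AIA 31 and 37.3 in AIA 38, against 0.974 in Control 15, 0.123 in Control 16 and 5.36 in the library labelled Control 17. Every AIA library stood above every Control library. With all 10 libraries the log2 fold change of AIA over Control was 2.57 (SE 1.33, limma adjusted p = 0.253). Lcn2 rose by 3.25 (SE 0.64, limma adjusted p = 0.0153) with 8 libraries, and with 7 its 3.65 (SE 0.85) missed the threshold, at a limma adjusted p of 0.0766.

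In the library labelled Acu 4, Lcn2 and Ltf were the highest of any library while Ngp rested on 2 reads and Camp on 4. All 6 simple epithelial genes examined were above 1 FPKM there and in the library labelled Control 17. Krt8 was 232 FPKM and Krt18 293 FPKM in the library labelled Acu 4, and 10.8 and 87.2 FPKM in the library labelled Control 17. In the 8 other libraries Krt8 was at most 0.178 FPKM and Krt18 at most 0.728 FPKM. The part of epithelial or decidual RNA in the Lcn2, Ltf and S100a8 values of these libraries was not tested.

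**Figure D2:**
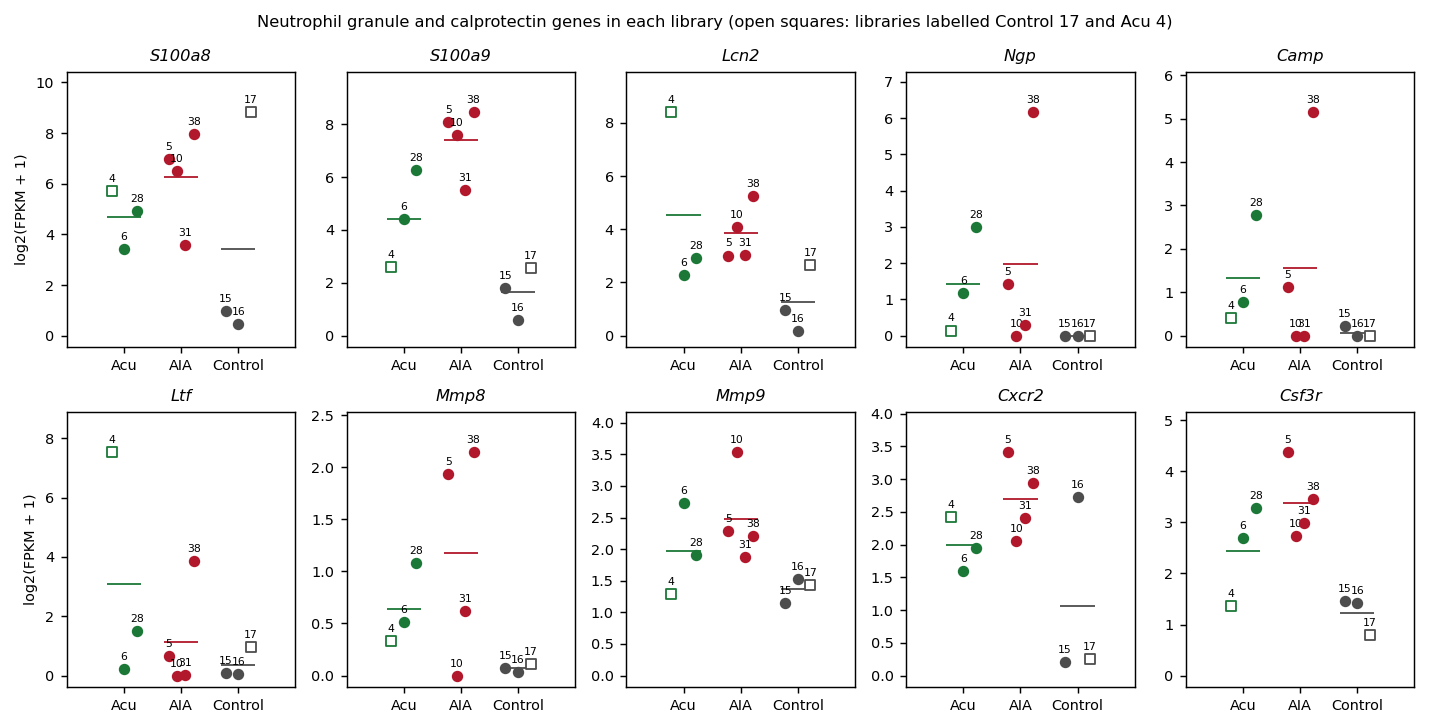
Level of each of the 10 genes in every library, as log2(FPKM + 1), with Acu, AIA and Control from left to right, each point numbered by its library and bars at the group means. AIA 38 alone carries high Ngp and Camp, and the open squares for the libraries labelled Acu 4 and Control 17 carry the highest Lcn2, Ltf and S100a8.

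The metalloproteases passed the test in no comparison with 10, 8 or 7 libraries. Mmp8, the neutrophil collagenase of secondary granules, was 0.259 FPKM in the library labelled Acu 4, 0.427 in Acu 6 and 1.11 in Acu 28. It was 2.81 FPKM in AIA 5, 0 in AIA 10, 0.534 in AIA 31 and 3.42 in AIA 38, against 0.0502, 0.0267 and 0.0806 FPKM in Control 15, Control 16 and the library labelled Control 17, where it rested on 2, 1 and 3 reads. All Acu libraries stood above all Control libraries, while AIA overlapped Control through AIA 10 and overlapped Acu through AIA 10 and AIA 31. The log2 fold change of AIA over Control was 1.10 (SE 0.49, limma adjusted p = 0.195) with all 10 libraries and 1.11 (SE 0.58, limma adjusted p = 0.238) with 8.

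Mmp9 encodes gelatinase B, which macrophages make as well. It was 1.46 FPKM in the library labelled Acu 4, 5.62 in Acu 6 and 2.74 in Acu 28. It was 3.89 FPKM in AIA 5, 10.6 in AIA 10, 2.69 in AIA 31 and 3.64 in AIA 38, against 1.22, 1.88 and 1.69 FPKM in Control 15, Control 16 and the library labelled Control 17. Every AIA library stood above every Control library, and Mmp9 was the 1 member with more than 1 FPKM in all 10 libraries. The log2 fold change of AIA over Control was 1.11 (SE 0.46, limma adjusted p = 0.175) with all 10 libraries and 1.13 (SE 0.48, limma adjusted p = 0.156) with 8. AIA 10, which held the most Mmp9, held 0 reads of Mmp8, Ngp, Camp and Ltf. In that library 3 reads would have given 0.109 FPKM of Mmp8, 0.217 of Ngp, 0.349 of Camp and 0.0767 of Ltf.

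Of the receptors, Csf3r differed between AIA and Control with 8 libraries and Cxcr2 did not pass the test. Csf3r, the receptor for granulocyte colony-stimulating factor, was 1.57 FPKM in the library labelled Acu 4, 5.45 in Acu 6 and 8.74 in Acu 28. It was 19.8 FPKM in AIA 5, 5.62 in AIA 10, 6.94 in AIA 31 and 9.94 in AIA 38, against 1.77, 1.69 and 0.740 FPKM in Control 15, Control 16 and the library labelled Control 17. AIA and Control did not overlap. With all 10 libraries the difference was 2.16 on the log2 scale (SE 0.53, limma adjusted p = 0.0745). Csf3r rose by 1.93 (SE 0.46, limma adjusted p = 0.0300) with 8 libraries, and with 7 the same 1.93 had an SE of 0.63 and a limma adjusted p of 0.187.

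Cxcr2, the receptor through which Cxcl1, Cxcl2 and Cxcl5 draw neutrophils into tissue, was 4.35 FPKM in the library labelled Acu 4, 2.02 in Acu 6 and 2.86 in Acu 28. It was 9.64 FPKM in AIA 5, 3.15 in AIA 10, 4.28 in AIA 31 and 6.68 in AIA 38. In Control it was 0.160 FPKM in Control 15, 5.65 in Control 16 and 0.192 in the library labelled Control 17. Control 16 held 266 reads of Cxcr2 beside 4 of S100a9 and 0 of Ngp. Its Cxcr2 was 11.4 times its S100a9, a ratio that lay between 0.0163 and 0.100 in the AIA libraries, Acu 6 and Acu 28. Control 16 was also the Control library with Cd79a at the AIA level, at 307 FPKM. For Cxcr2 the log2 fold change of AIA over Control was 1.64 (SE 0.62, limma adjusted p = 0.150) with all 10 libraries, 1.21 (SE 0.66, limma adjusted p = 0.255) with 8 and -0.07 (SE 0.53, limma adjusted p = 0.970) with 7, where Control 16 alone stood for Control.

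The comparison of AIA with Control addresses the effect of the adjuvant. With all 10 libraries, limma called 0 of the 10 members, against 0.0235% of the 17010 genes tested. At an unadjusted p under 0.05 there were 5 members, against 25% of genes, and limma's voom on the recovered reads called 0 as well. The groups did not overlap for 4 members, all higher in AIA (S100a9, Lcn2, Mmp9 and Csf3r), against 11.4% of all genes. With 8 libraries 4 of 10 members rose (S100a8, S100a9, Lcn2 and Csf3r) and 0 fell, against 4.28% of 16067 genes called higher. The groups then did not overlap for 5 members, against 18% of genes. The median log2 fold change of the 10 members was 1.69 with 8 libraries, beside -0.01 for all genes tested. With 7 libraries, where Control 16 alone stood for Control, S100a9 was the 1 member called, against 0.479% of genes called higher. The members called with 8 libraries numbered 3 or 4 when any single AIA or Acu library was left out as well, and Csf3r was the call lost, without AIA 38, Acu 6 or Acu 28.

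**Figure D3:**
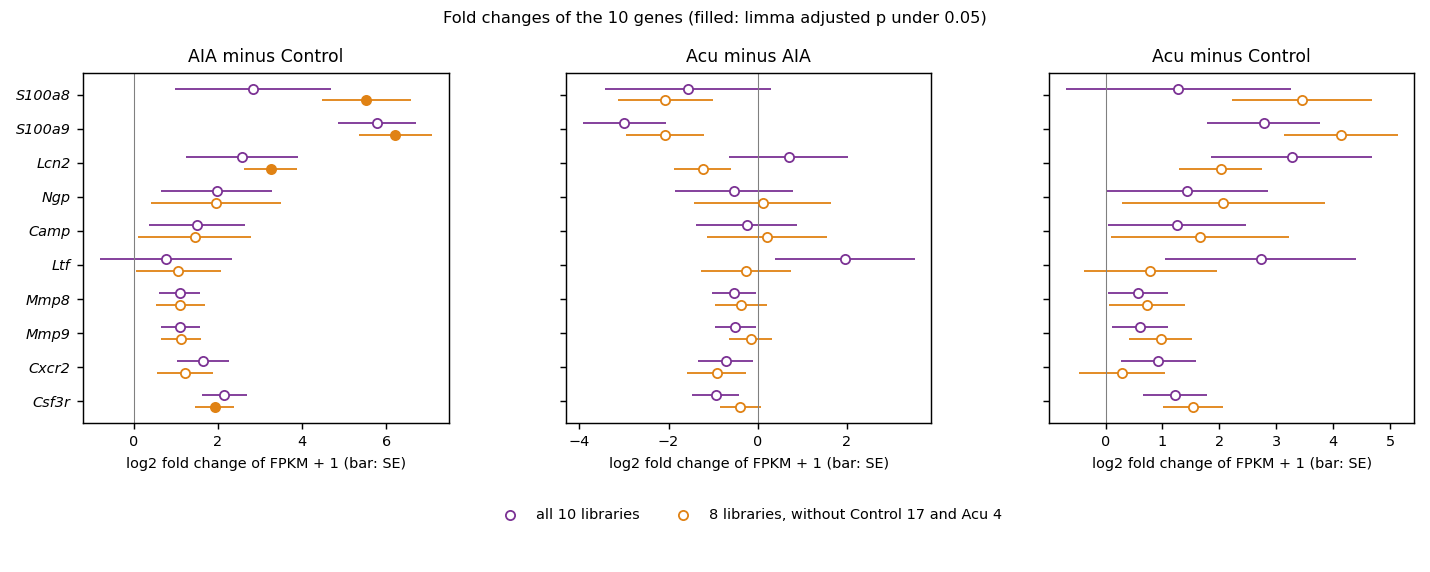
Log2 fold changes of FPKM + 1 for the 10 genes in each comparison, with limma's SE as bars, for all 10 libraries (purple) and for 8 libraries (orange), filled where the adjusted p was under 0.05. The 4 filled points are S100a8, S100a9, Lcn2 and Csf3r in AIA over Control with 8 libraries.

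The comparison of Acu with AIA addresses the effect of acupuncture after the adjuvant. No member passed the test between Acu and AIA. limma called 0 of 10 members with all 10 libraries and 0 with 8, against 0% of genes in both, and voom called 0. At an unadjusted p under 0.05 there was 1 member in each fit, S100a9, against 4.7% of genes with all 10 libraries and 2.99% with 8. S100a9 averaged 33.4 ± 36.8 FPKM in Acu (SD, n = 3) and 214.6 ± 130.3 FPKM in AIA (SD, n = 4), a log2 fold change of -2.99 (SE 0.93, limma adjusted p = 0.746) with all 10 libraries and -2.08 (SE 0.87, limma adjusted p = 0.984) with 8. S100a8 had -1.56 (SE 1.85, limma adjusted p = 0.789) with 10 libraries and -2.07 (SE 1.06, limma adjusted p = 0.984) with 8. Lcn2 had 0.69 (SE 1.33) with 10 libraries, through the library labelled Acu 4, and -1.23 (SE 0.64) with 8, where Acu 6 and Acu 28 stood below all 4 AIA libraries. Cxcr2 was the other member without overlap, at -0.92 (SE 0.66), so 2 of 10 members were lower without overlap, against 7.69% of genes. Ngp and Camp had differences of 0.11 (SE 1.54) and 0.21 (SE 1.35) with 8 libraries, since Acu 28 lay between AIA 38 and the other AIA libraries. The errors of Ngp, Camp and Ltf, each at least 1.01 on the log2 scale with 8 libraries, leave room for a change of several fold in either direction.

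Acu was also compared with Control, with the Control libraries that AIA was set against. With all 10 libraries limma called 0 of 10 members, against 0% of genes, with 2 members at an unadjusted p under 0.05, against 7.5% of genes, and 0 called by voom. The groups did not overlap for 4 members, S100a9, Ngp, Camp and Mmp8, all higher in Acu, against 4.87% of genes. The groups did not overlap for these 4 with 8 libraries either. With all 10, each gap was set by the library labelled Acu 4, the lowest of Acu. For Ngp it had 2 reads against 0 in Control, too few to place one above the other, and for Camp 4 reads against 2 in Control 15. For S100a9 it had 42 reads against 39 in the library labelled Control 17, and for Mmp8 10 reads against 3 in that library. With 8 libraries limma again called 0 members, against 4.44% of genes, and 4 had an unadjusted p under 0.05, against 22.7% of genes. S100a9 came nearest the threshold, with a log2 fold change of 4.13 (SE 1.00, limma adjusted p = 0.0578), followed by S100a8 at 3.45 (SE 1.22, limma adjusted p = 0.146). Acu 6 and Acu 28 stood above Control 15 and 16 for 9 of 10 members, all but Cxcr2, against 32.4% of genes. With these 8 libraries the mean FPKM of 9 members was lowest in Control, higher in Acu and highest in AIA, and for Cxcr2 the lowest mean was that of Acu. For 4 of the 9 the order rests on a single AIA library. Without AIA 38 the mean of Ngp was 4.11 FPKM in Acu and 0.635 in AIA, that of Camp 3.28 in Acu and 0.390 in AIA, and that of Ltf 1.01 in Acu and 0.203 in AIA. Without AIA 10 the mean of Mmp9 was 4.18 FPKM in Acu and 3.41 in AIA. AIA and Acu, neighbours in that order, differed by an amount that passed the test for no member.

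The earlier stages of granulocyte development were looked at in the same libraries. Of the 6 primary granule genes, 5 were above 1 FPKM in AIA 38 and none was in AIA 5, 10 or 31. Mpo, myeloperoxidase, was 8.78 FPKM in AIA 38 and at most 0.509 FPKM in the other 9 libraries. Elane, neutrophil elastase, was 17.4 FPKM in AIA 38, and Cebpe, the C/EBP factor that drives secondary granule genes, was 1.47 FPKM there and at most 0.241 FPKM elsewhere. The library with the highest Ngp and Camp was thus also the one with the highest Mpo, Elane and Cebpe. Ctsg, cathepsin G, was 9.40 FPKM in AIA 38 but reached 43.9 FPKM in the library labelled Acu 4 and 142 FPKM in the library labelled Control 17, where Mpo was 0.293 and 0.247 FPKM. Prtn3, proteinase 3, and Elane were 5.44 and 2.10 FPKM in Control 15, where Ngp was 0. They were 1.53 and 1.25 FPKM in Control 16, where Ngp was 0 as well, and 1.64 and 1.11 FPKM in Acu 28. Both genes lie upstream of Cfd, an adipocyte gene on the same strand of chromosome 10, with Elane between Prtn3 and Cfd. Cfd was listed at 10449 FPKM in Control 15. Whether reads of Cfd entered the Prtn3 and Elane values was not tested.

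**Figure D4:**
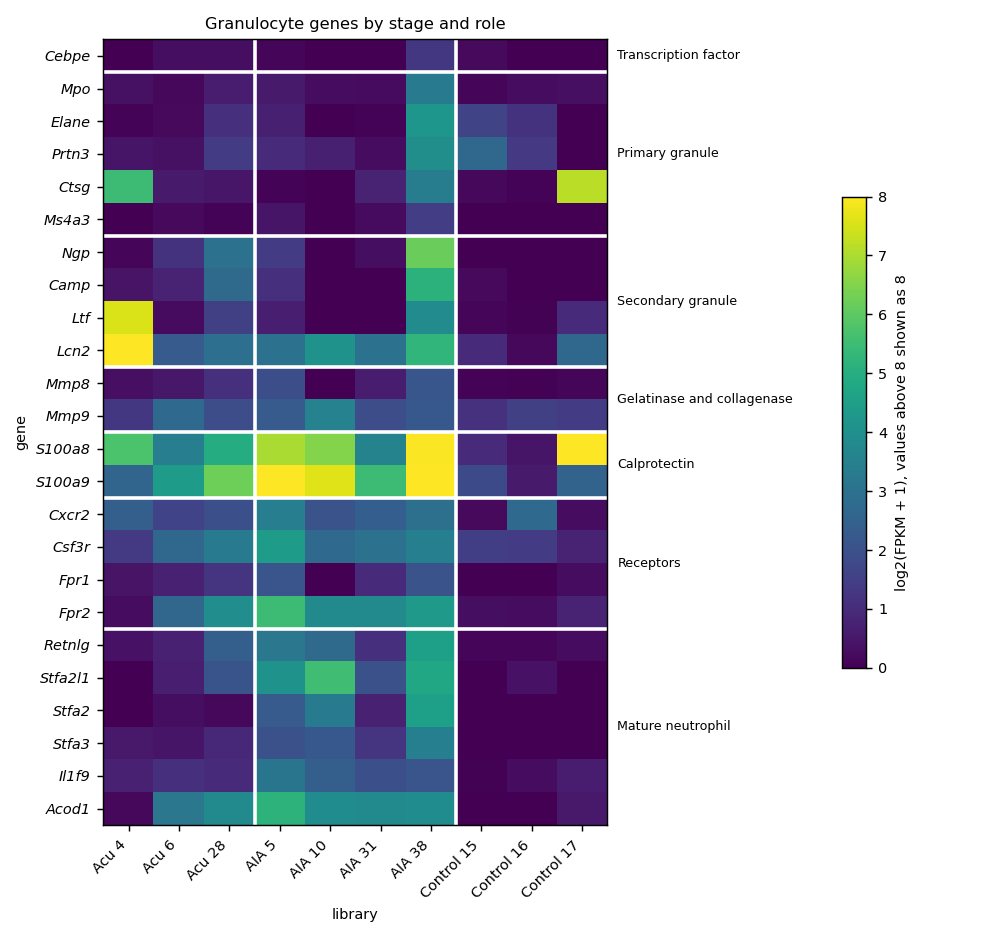
Granulocyte genes (rows, by stage and role) in each library (columns, with Acu, AIA and Control from left to right), coloured by log2(FPKM + 1) with values above 8 shown as 8. AIA 38 has the 5 primary granule genes drawn above 1 FPKM, and AIA 5, 10 and 31 have none. Prss57, the other of the 6 listed, is not drawn and was 0.166 FPKM in AIA 38.

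With 8 libraries 7 of 15 tested neutrophil surface genes (17 listed) rose in AIA over Control and 0 fell, against 4.28% of all genes called higher, with a median log2 fold change of 1.72. Fpr2, a receptor for formylated peptides, was 0.194 FPKM in the library labelled Acu 4, 5.25 in Acu 6 and 14.1 in Acu 28, and 44.1, 12.9, 13.1 and 19.3 FPKM in AIA 5, 10, 31 and 38. In Control 15, Control 16 and the library labelled Control 17 it was 0.235, 0.200 and 0.704 FPKM. Fpr2 rose by 4.06 (SE 0.54, limma adjusted p = 0.00409) with 8 libraries, and the limma adjusted p was 0.0445 with 7, against Control 16 alone. Ly6g, the gene that most narrowly marks mouse neutrophils, was low throughout: 0, 0.524 and 0.687 FPKM in the library labelled Acu 4, Acu 6 and Acu 28, 1.23, 0, 1.20 and 3.25 FPKM in AIA 5, 10, 31 and 38, and at most 0.137 FPKM in Control. Its log2 fold change of 0.99 (SE 0.49) was not called, at a limma adjusted p of 0.208. Of 12 tested mature neutrophil genes (13 listed), 5 rose and 1 fell with 8 libraries, against 4.28% of all genes called higher and 9.2% called lower. Acod1, which makes itaconate in activated myeloid cells, rose by 4.16 (SE 0.43, limma adjusted p = 0.00285). Stfa2l1, a stefin of mouse neutrophils, rose by 3.88 (SE 0.88, limma adjusted p = 0.0254), with 2.99 to 46.2 FPKM in AIA and at most 0.313 FPKM in Control. Steap4, a metalloreductase that fat tissue also makes, was the gene that fell, by 3.24 (SE 0.80, limma adjusted p = 0.0346). Wfdc21, of the same list, was 96.9 FPKM in Control 15, 12.1 in Control 16 and 0 in the library labelled Control 17. In AIA it was 2.20 to 13.0 FPKM. Of the 12 tested genes, 10 stood higher in AIA than in Control with 8 libraries and 2 stood lower. With 7 libraries the calls numbered 3 surface genes and 1 mature neutrophil gene, Acod1. With all 10 libraries limma called 0 genes of either list, with 9 surface and 10 mature neutrophil genes at an unadjusted p under 0.05, against 25% of all genes, and voom called 0.

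Genes that act before or after the members were counted in AIA over Control with 8 libraries, where limma called 4.28% of all genes higher and 9.2% lower. Counts of 1 to 3 genes in lists this short are too small to read as a result about a list. Among recruitment and growth genes (17 listed), 2 of 10 tested rose. These were Il1b, interleukin 1 beta, by 3.87 (SE 0.48, limma adjusted p = 0.00327), and Cxcl5, a ligand of Cxcr2, by 3.55 (SE 0.70, limma adjusted p = 0.0159). Csf3, the ligand of Csf3r, had a log2 fold change of 1.03 (SE 0.41, limma adjusted p = 0.135). Of the 6 phagocyte oxidase genes, all tested, 1 rose, Cybb, which encodes the catalytic subunit, by 2.58 (SE 0.35, limma adjusted p = 0.00414). Among 6 tested transcription factors (7 listed), Spi1, which encodes PU.1, rose by 1.87 (SE 0.44, limma adjusted p = 0.0297), and Cebpa fell by 3.44 (SE 0.53, limma adjusted p = 0.00657). Cebpa, which fat cells also use, was 465 FPKM in Control 15 and 110 in Control 16, against 16.7 to 24.5 FPKM in AIA. Of 13 tested receptors and inhibitors of the products (14 listed), 2 rose and 3 fell. Timp1, an inhibitor of Mmp8 and Mmp9, rose by 3.98 (SE 0.63, limma adjusted p = 0.00745). Cd44, which can hold Mmp9 at the cell surface, rose by 2.42 (SE 0.42, limma adjusted p = 0.0101). Timp4, another inhibitor of the family, fell by 4.33 (SE 0.54) and Cd36, a receptor of calprotectin and fatty acids, by 5.20 (SE 0.63), and both are high in fat tissue. Slc22a17, a receptor for Lcn2, fell by 1.25 (SE 0.26, limma adjusted p = 0.0196). Tlr4, the receptor for calprotectin, had -0.30 (SE 0.48, limma adjusted p = 0.720). Of 7 tested genes of other granules and secretory vesicles (10 listed), 1 rose, Lyz2, lysozyme of myeloid cells, by 2.46 (SE 0.58, limma adjusted p = 0.0295). With 7 libraries, against Control 16 alone, Il1b, Cybb, Cebpa, Timp4 and Cd36 had an adjusted p under 0.05, and Cxcl5, Spi1, Timp1, Cd44, Slc22a17 and Lyz2 did not, with limma adjusted p-values between 0.0716 (Timp1) and 0.224 (Spi1). In AIA over Control with all 10 libraries, limma and voom called 0 genes of these lists. At an unadjusted p under 0.05 there were then 6 of 11 tested recruitment genes, 6 of 6 oxidase genes, 2 of 6 transcription factors, 8 of 14 receptors and inhibitors and 1 of 8 genes of other granules, against 25% of all genes. Between Acu and AIA limma called 0 genes of all these lists with 8 libraries.

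The tissue in the nodes differed between the groups as well. With 8 libraries the mean log2(FPKM + 1) of 9 adipocyte genes was 3.81 and 4.23 in the Acu libraries, 1.69 to 4.38 in AIA, and 8.62 and 10.5 in Control. All 8 tested adipocyte genes fell in AIA over Control, against 9.2% of all genes called lower. With 7 libraries, against Control 16 alone, the median log2 fold change of the 8 was -6.09. With all 10 limma called 0 of them, with 2 at an unadjusted p under 0.05, against 25% of all genes. The mean of 11 macrophage and monocyte genes was 4.32 and 4.63 in Acu, 4.03 to 4.89 in AIA, and 3.07 and 3.49 in Control, and 4 of the 11 rose, against 4.28% of all genes. With 7 libraries, against Control 16 alone, the median log2 fold change of the 11 was 1.55. With all 10 limma called 0 of them, with 6 at an unadjusted p under 0.05, against 25% of all genes. The same mean over 10 skeletal muscle genes, with 8 libraries, was 5.22 and 6.36 in Acu and 0.838 to 5.96 in AIA. It was 6.81 in Control 15 and 8.64 in Control 16. All 10 stood lower in AIA than in Control and 3 were called. Of 5 tested erythroid genes (7 listed) 4 fell. The share of all genes called lower was 9.2%. In Acu over AIA all 10 muscle and all 8 tested adipocyte genes stood higher, against 56.3% of all genes, and limma called 0. The part of these tissue differences in the values of the 10 members was not tested.

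The genes outside the set nearest to S100a9 and Camp in profile were taken over the 8 libraries, by the root-mean-square difference of centred log2(FPKM + 1). For S100a9 these were Ly6i at 1.06, Fpr2 at 1.17, the chemokine gene Ccl12 at 1.22 and Gm15056 at 1.23, all farther from it than S100a8. For Camp, all farther from it than Ngp and Ltf, these were Ifitm6 at 0.793, BC100530, a stefin-related gene, at 0.810, the immunoglobulin segment Ighv12-3 at 0.855 and the T cell receptor segment Traj11 at 0.930. All 4 had their highest level in AIA 38, with 19.6, 22.3, 13.2 and 9.97 FPKM. A peak there follows from the choice by likeness to Camp, which was itself highest in AIA 38. All these profiles come from the same libraries, which differ in depth and in tissue, and the differences are given as a description.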

How the data were processed

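RNA sequencing of 10 popliteal lymph node libraries was read from 1 table. The authors deposited FPKM per gene for each library, with gene lengths and coordinates on mm10. Per the submitters' processing notes, which give no roles, HISAT2 2.0.5, StringTie 1.3.3b, featureCounts 1.5.0-p3 and DESeq2 1.16.1 were used, and strand-specific counting is not stated. FPKM times gene length was a whole multiple of 1 step per library for 100% of values (tolerance 0.01 of a step), which gave the reads behind each value and showed that sizes had been scaled between libraries before deposit.

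FPKM were scaled by the median of ratios and taken as log2(FPKM + 1), a scale that understates the change of low genes. Genes entered the test when 3 or more libraries had a deposited FPKM of 0.5 or more. One model was fitted over all libraries in limma 3.58.1 (R 4.3.3), with a mean per group and a mean-variance trend, adjusted by Benjamini and Hochberg over all genes tested, at a threshold of 0.05. SE is limma's moderated standard error, and SD is the spread of FPKM between libraries. The script was tested on simulated data. A count of 0 was taken to allow 3 reads, which covers counting error only. Groups come from the treatment labels, and no batch is given. The 10 members and the other 18 gene lists were chosen with earlier results of these data known. All members were named, and, from other lists, genes of high mean level and those a result turns on, chosen after their values were seen. Python 3.11.15 with numpy 2.4.6, pandas 2.3.3 and matplotlib 3.10.9 was used for the rest.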

Additional observations from a re-analysis of the deposited data

Results flagged for a closer look

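In AIA, the group with 4 libraries, the FPKM of 10 members were examined for a library far from the other 3. The rule was applied to FPKM as such and not to log2(FPKM + 1). Chance flags about 1 in 20 groups only where values are normally distributed, which was not checked for these FPKM, so the chance rate here is not known. AIA 38 stood far above the other AIA libraries for Ngp, at 70.8 FPKM, for Camp, at 34.5 FPKM, and for Ltf, at 13.6 FPKM. The next AIA library, AIA 5, had 1.67, 1.17 and 0.593 FPKM of these genes. AIA 10 stood far above the other AIA libraries for Mmp9, at 10.6 FPKM, against 3.89 FPKM in AIA 5. In AIA 10 fewer genes were above 0 than in any other library, 15116.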

How the results depend on the processing

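No paired analysis was possible because the 3 groups share no replicate number. For AIA over Control, the count of members called, 0 with all 10 libraries, was 1 with a filter at 1 FPKM, 2 with array weights, 4 without the libraries labelled Control 17 and Acu 4, 1 without Control 15 as well, and 0 to 3 when each library was left out in turn. Leaving out each AIA or Acu library from the 8 as well, an alternative chosen after seeing the data, gave 3 to 4. The count over all genes, 4, was 0 with a pseudocount of 0.1, 1 with no filter, 60 with a filter at 1 FPKM, 0 with voom, 3319 with array weights, 2166 with 8 libraries, 486 with 7, 0 to 1708 with each library left out, and 1071 to 3386 with each left out of the 8. For Acu over AIA it was 0, against 2 with no filter, 98 with array weights and 0 to 1 with each library left out. For Acu over Control it was 0, against 1 with no filter, 2067 with array weights, 713 with 8 libraries, 0 to 299 with each library left out and 0 to 2073 with each left out of the 8, where 0 to 2 members were called.

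Directions turned as follows, and the cause was not tested. Cxcr2 was -0.07 in AIA over Control and -0.99 in Acu over Control with 7 libraries. In Acu over AIA, Lcn2 was -0.60 with array weights, -1.23 with 8 and with 7 libraries, and -1.24 to 1.81 with each library left out (-1.54 to -0.76 out of the 8). Ngp was 0.01 with voom, 0.60 with array weights, 0.11 with 8 and with 7, and -1.32 to 0.86 with each left out (-0.80 to 1.51). Camp was 0.65 with a pseudocount of 0.1, 1.12 with voom, 0.67 with array weights, 0.21 with 8 and with 7, and -0.97 to 0.95 with each left out (-0.79 to 1.40). Ltf was -0.27 with 8 and with 7, and -0.27 to 3.38 with each left out (-0.67 to 0.36), and had no value in 3 of the 6 fits that leave a library out of the 8, where it failed the filter. Mmp9 was 0.38 with array weights, and -0.88 to -0.16 with each left out (-0.57 to 0.25). With each library left out, Ltf in AIA over Control ranged from -0.14 to 1.19 (1.06 to 1.46 out of the 8), and S100a8 in Acu over Control from -0.20 to 3.99 (2.70 to 4.21). At these depths a gene with 0 reads in a library cannot be placed below the value of 3 reads.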
